A study of Mus musculus with 14 samples.

Results

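The genes described here are those of adult hemoglobin, Hba-a1, Hba-a2, Hbb-bs and Hbb-bt, together with Alas2, followed as transcripts of red blood cells in brain tissue. They were picked by symbol and make up 5 of the 43346 genes in the count table. All 5 had counts in every library. The study sequenced RNA from a slice of brain spanning hippocampus and cortex of 14 female mice, and asked how the tissue of mice with familial Alzheimer's disease (AD) mutations differed from that of normal mice and what long treatment with CP2, a tricyclic pyrone that partly inhibits mitochondrial complex I, did to it.

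Each library came from 1 mouse aged 23 months of the strain labelled C57BL/6;SJL-Tg. The NTG group held 4 non-transgenic mice (mice 7 to 10). The APP/PS1 group held 5 mice (mice 16 to 20) labelled APP/PS1 +/+, which carry APP and PS1 transgenes with familial mutations, and the CP2-treated APP/PS1 group held 5 more mice of that genotype (mice 21 to 25). CP2 was given in drinking water at 25 mg/kg/day with 0.1% PEG from 9 months of age, that is for 14 months. The first 2 groups are labelled non-treated, and the treatment protocol describes their water as holding the 0.1% PEG vehicle. The transgenes model inherited disease only, and all 14 mice were female. Whether the brains used for RNA were flushed of blood is not given in the sources used here, and no hematocrit goes with the libraries.

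Hemoglobin is a tetramer of α chains, made in the mouse by Hba-a1 and Hba-a2 on chromosome 11, and β chains, made by Hbb-bs and Hbb-bt on chromosome 7, each holding a heme. Alas2 encodes the red cell form of 5-aminolevulinate synthase, the enzyme that opens heme synthesis in developing red cells, while other cells use Alas1. Young red cells (reticulocytes) keep their globin and Alas2 messages for a short time after losing the nucleus, so blood trapped in brain vessels brings these transcripts into a tissue library, and globin messages have also been seen in some neurons and glia.

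In the mm10 (GRCm38) build, Hba-a1 lies at chr11:32283511-32284465 and Hba-a2 at chr11:32296489-32297298, both on the plus strand. Hbb-bs lies at chr7:103826534-103828096 and Hbb-bt at chr7:103812524-103813996, both on the minus strand. Alas2 lies on the plus strand at chrX:150547375-150570638. All 5 coordinates were the same in GENCODE M21. The genes of each chain are near copies. Of the 101-base windows of the Hba-a1 transcript, 56.3% were also found without a mismatch in Hba-a2, and 74.2% of those of Hba-a2 in Hba-a1. Of the windows of Hbb-bs, 62.5% were found in Hbb-bt, and 54.7% in reverse. How the counting placed reads that fit both copies is not given in the sources used here, so the split within a chain is uncertain. Sums over a chain are given beside the single genes. If such reads were dropped or counted for both copies, these sums would change too, and not by the same amount for each chain. The α share, the ratios to Alas2 and the order of α and β levels carry this limit. Alas2 shares 311 of its 2403 exon bases (12.9%) with Apex2, a DNA repair gene on the other strand. Apex2 had 393 to 673 counts a library and passed the test in no comparison (log2 fold changes -0.18, -0.05 and 0.13). Mir3620, the other gene that overlaps Alas2, had 0 to 3 counts.

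The DNA before the RefSeq start of 1 α gene, 1 β gene and Alas2 is shown as background. It was taken from the RefSeq promoter windows of GRCm38.p6, which held all 5 genes. The part of this DNA in the levels given here was not tested. Each stretch is the 83 bases nearest the RefSeq start that held no exon base of that gene in GENCODE M21, written 5′ to 3′ on the gene's strand. The first is chr11:32296406-32296488 (plus strand), the second chr7:103827929-103828011 (minus strand) and the third chrX:150547292-150547374 (plus strand).
Hba-a2: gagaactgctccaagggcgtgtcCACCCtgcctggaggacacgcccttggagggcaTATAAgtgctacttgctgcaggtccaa
Hbb-bs: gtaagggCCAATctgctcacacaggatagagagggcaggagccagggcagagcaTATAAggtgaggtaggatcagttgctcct
Alas2: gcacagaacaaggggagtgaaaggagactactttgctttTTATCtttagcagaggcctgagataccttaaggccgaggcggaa
Capitals mark matches on either strand to GATAA (the core bound by GATA factors, read as TTATC on the strand shown in Alas2), CACCC (bound by Klf1-type factors), CCAAT and TATAA. No marked matches overlapped each other. Over the 32851 RefSeq promoter windows cut to the 83 bases before the start, 7.02% held GATAA, 23.3% CACCC, 16% CCAAT and 8.93% TATAA. The Hba-a2 stretch was found without a mismatch in the promoter window of Hba-a1. There it lay at chr11:32283589-32283671, inside the span given above for Hba-a1. The Hbb-bs stretch also lay inside the span given above for Hbb-bs, which begins upstream of the RefSeq start. Both globin stretches held TATAA, and only the Alas2 stretch of these 3 held GATAA. Between the stretch and the RefSeq start lay 3 bases in Hba-a2, 0 in Hbb-bs and 42 in Alas2. The stretches thus cover unlike positions, and only that of Hbb-bs has the position of the windows behind the percentages.

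The libraries held 70548781 to 106235625 gene counts. Levels are given in CPM, counts scaled to library size. A count of 3 in the smallest library equals 0.0425 CPM (here scaled by edgeR's TMM factors except for this floor), so the members, at 153 counts or more in every library, were far above it. Intervals from counts cover counting error only. Ribosomal RNA-like transcripts took 4.72 to 7.50% of counts in NTG, 2.40 to 5.51% in APP/PS1 and 4.49 to 7.40% in CP2-treated mice. No pair of libraries within a group agreed within sampling noise. The listed neuron, oligodendrocyte and astrocyte markers each summed to 3296 CPM or more in all 14 libraries.

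Hemoglobin transcripts were a small share of the RNA, 0.00765 to 0.0452% of counts, and their amount differed widely between mice. Summed over the 4 genes, the level was 147, 80.2, 113 and 81.1 CPM in NTG mice 7, 8, 9 and 10. It was 214, 111, 259, 184 and 457 CPM in APP/PS1 mice 16 to 20. In CP2-treated mice 21 to 25 it was 165, 146, 133, 432 and 371 CPM. The highest mouse, mouse 20, had 5.70 times the level of the lowest, mouse 8. Mice 20, 24 and 25 stood above the other 11. The mean was 105 ± 31.7 CPM for the NTG mice (SD, n = 4). It was 245 ± 130 CPM for vehicle-treated APP/PS1 mice and 249 ± 141 CPM for those given CP2 (SD, n = 5 each), so the APP/PS1 mean was 2.33 times and the CP2-treated mean 2.37 times that of NTG. Without mouse 20 the first ratio was 1.82, and without mouse 24 the second was 1.93. The ranges of NTG and APP/PS1 overlapped, since mouse 17 lay below NTG mice 7 and 9, and NTG mouse 7 lay within the CP2-treated range. In bulk tissue, more red cells, more RNA per red cell and globin messages from neurons or glia cannot be told apart.

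**Figure D1:**
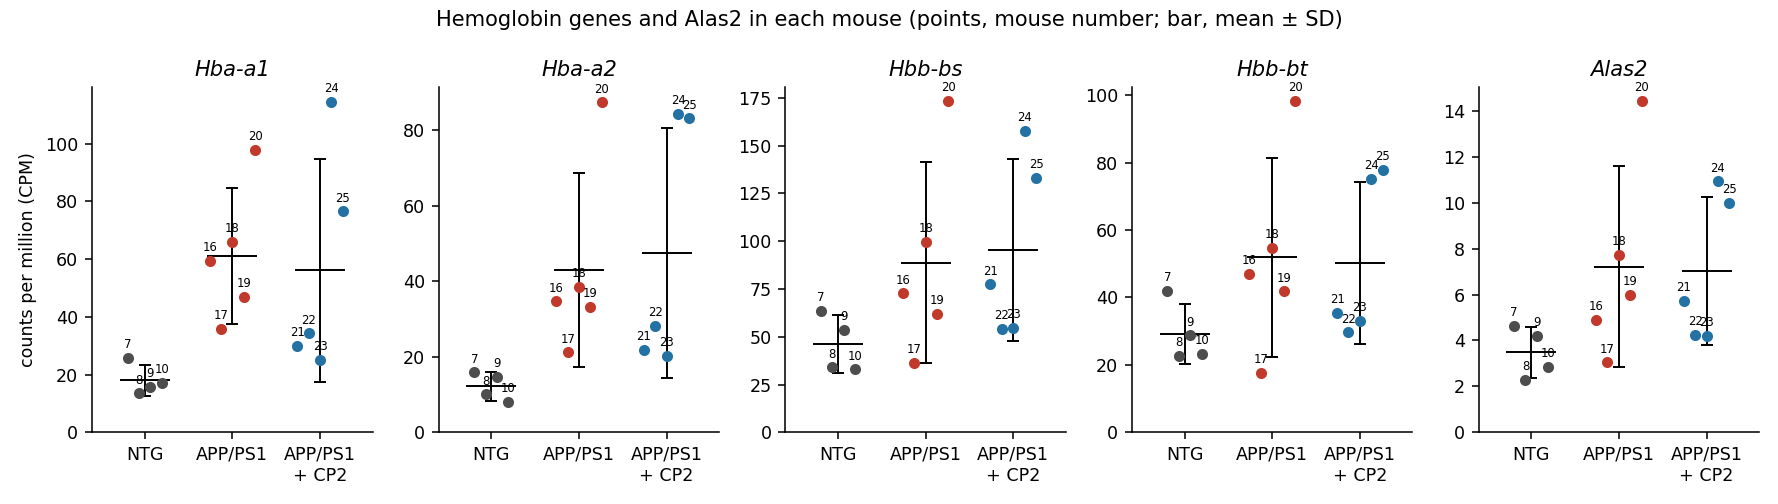
Level of each member in CPM (linear axis from 0) for NTG, APP/PS1 and CP2-treated APP/PS1 mice. Points are single mice with their number, and bars are the group mean ± SD (n = 4, 5 and 5). Mice 20, 24 and 25 are the 3 highest for every member, and for the α genes every vehicle-treated APP/PS1 mouse lies above every NTG mouse.

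The α genes came first in the comparison of APP/PS1 with NTG mice. Hba-a1 was at 25.7, 13.5, 15.7 and 17.1 CPM in NTG mice 7 to 10 and at 59.3, 35.9, 66.0, 46.9 and 97.9 CPM in APP/PS1 mice 16 to 20. The lowest APP/PS1 mouse lay above the highest NTG mouse. Hba-a1 rose in APP/PS1 mice, with a log2 fold change of 1.77 ± 0.29 (SE) and an adjusted p of 0.0057 from edgeR's quasi-likelihood test (fold 3.41). Hba-a2 was at 15.9, 10.1, 14.6 and 7.96 CPM in NTG and at 34.7, 21.1, 38.4, 33.2 and 87.4 CPM in APP/PS1 mice, again without overlap. Hba-a2 rose as well, by 1.83 ± 0.40 on the log2 scale (adjusted p = 0.0233, fold 3.56). These were 2 of 5 members called, where 5.68% of the 16417 genes tested were called in this comparison, and 2 of 5 members whose groups did not overlap, where 10% of genes did not. The call for Hba-a1 held when any 1 of the 9 mice was left out (adjusted p 0.0041 to 0.0278), and the call for Hba-a2 was lost without NTG mouse 8 (0.0801), mouse 9 (0.0610) or mouse 10 (0.0743).

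The β genes and Alas2 had smaller differences with the same sign that did not pass the test. Hbb-bs was at 63.7, 34.0, 53.7 and 32.9 CPM in NTG mice and at 72.7, 36.3, 99.8, 62.0 and 173 CPM in APP/PS1 mice 16 to 20. The groups overlapped, with 3 of 5 APP/PS1 mice above every NTG mouse. Its log2 fold change was 0.96 ± 0.41 (adjusted p = 0.237). Hbb-bt, the less counted β gene, was at 41.9, 22.7, 28.8 and 23.2 CPM in NTG and at 47.1, 17.5, 54.7, 41.8 and 98.3 CPM in APP/PS1 mice. Mouse 17 had the lowest Hbb-bt level of all 14 mice, and the log2 fold change was 0.84 ± 0.40 (adjusted p = 0.306). Alas2 was at 4.63, 2.28, 4.20 and 2.84 CPM in NTG and at 4.89, 3.04, 7.72, 5.99 and 14.4 CPM in APP/PS1 mice, with 4 of 5 above every NTG mouse. Its log2 fold change was 1.06 ± 0.41 (adjusted p = 0.198). At an unadjusted p under 0.05, 4 of the 5 members passed, beside 18.7% of all genes tested. Mouse 20 carried much of these differences. Without it the log2 fold changes were 1.54 for Hba-a1, 1.40 for Hba-a2, 0.56 for Hbb-bs, 0.47 for Hbb-bt and 0.64 for Alas2. The median log2 fold change over all genes tested was -0.0042.

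**Figure D2:**
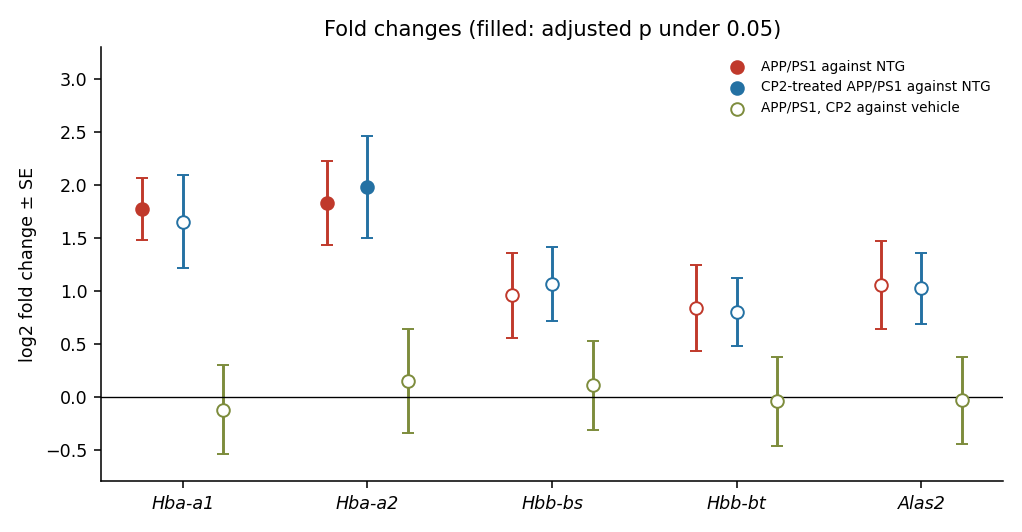
Log2 fold change ± SE of each member in the 3 comparisons (edgeR's quasi-likelihood test). Filled points have an adjusted p under 0.05, which holds for Hba-a1 and Hba-a2 in APP/PS1 against NTG and for Hba-a2 in CP2-treated APP/PS1 against NTG, while the points for CP2 against vehicle within APP/PS1 mice lie between -0.12 and 0.15.

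The share of hemoglobin reads that came from the α genes separated the NTG mice from all APP/PS1 mice. α reads were 28.3, 29.3, 26.9 and 30.8% of all hemoglobin reads in NTG mice 7 to 10, and 44.0, 51.4, 40.3, 43.6 and 40.5% in APP/PS1 mice 16 to 20. In CP2-treated mice 21 to 25 the share was 31.4, 42.8, 34.0, 46.0 and 43.1%. Every NTG mouse lay below every mouse of both APP/PS1 groups, though narrowly for CP2-treated mouse 21, whose Wilson 95% interval of 30.7 to 32.2% overlapped that of NTG mouse 10 (29.8 to 31.9%). The group means were 28.8 ± 1.66% in NTG (SD, n = 4), 44.0 ± 4.49% in APP/PS1 (SD, n = 5) and 39.5 ± 6.35% in CP2-treated mice (SD, n = 5). Between the vehicle-treated and CP2-treated APP/PS1 mice the ranges overlapped. Mouse 17, with the lowest hemoglobin level of its group, had the highest α share of all 14 mice, whereas among the CP2-treated mice the highest shares were in mice 24 and 25, which had the most hemoglobin. NTG mouse 7, with nearly the same summed level as CP2-treated mouse 22, had 28.3% against 42.8%. Shares built from the deposited RPKM (reads scaled to library size and transcript length) had the same split, at 28.6 to 31.6% in NTG, 41.8 to 53.1% in APP/PS1 and 33.1 to 48.0% in CP2-treated mice. These shares are given as a description, and they depend on how reads that fit both copies of a gene were counted. The difference between the α and the β changes was not tested.

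The amount of β message per Alas2 count was similar in the 3 groups. There were 19.6 to 24.9 β counts per Alas2 count in NTG mice, 17.3 to 24.5 in APP/PS1 mice and 19.7 to 21.3 in CP2-treated mice. The 3 ranges overlapped, although the β level itself ran over a 5.05-fold range between mice and Alas2 over a 6.33-fold range. α counts per Alas2 count were 7.23 to 10.3 in NTG, 12.8 to 19.2 in APP/PS1 and 9.02 to 18.2 in CP2-treated mice. All 5 vehicle-treated APP/PS1 mice thus lay above all 4 NTG mice on this ratio, and CP2-treated mouse 21 lay among the NTG mice. The splits within a chain varied less by group: Hbb-bt took 34.9 to 41.4% of β counts in NTG, 32.5 to 40.3% in APP/PS1 and 31.5 to 37.7% in CP2-treated mice, and Hba-a2 took 31.8 to 48.2%, 36.8 to 47.2% and 42.1 to 52.0% of α counts.

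**Figure D3:**
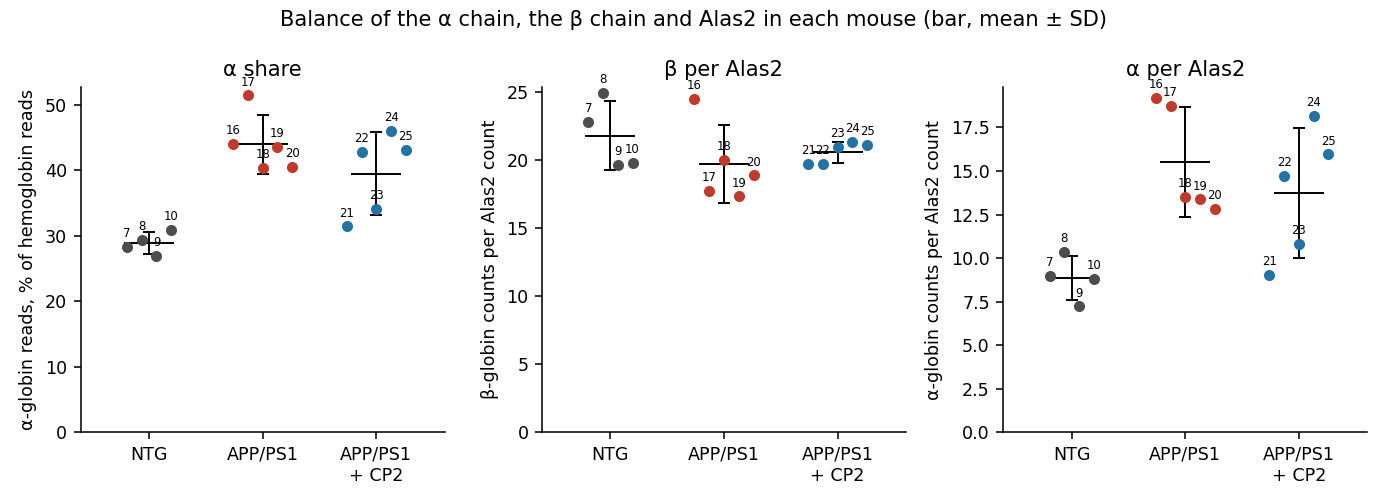
Balance of the chains in each mouse, with α reads as a percentage of hemoglobin reads (left), β counts per Alas2 count (middle) and α counts per Alas2 count (right). Points are single mice with their number and bars the group mean ± SD (n = 4, 5 and 5). The 4 NTG mice lie at 26.9 to 30.8% on the left, below every APP/PS1 mouse, while the groups overlap in the middle.

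Per length of transcript, on the RPKM scale, the β genes stood above the α genes in NTG mice. This order, too, depends on how reads that fit both copies were counted. The mean levels in NTG were 42.6 ± 14.1 RPKM for Hbb-bs, 33.1 ± 10.4 for Hbb-bt, 17.7 ± 5.57 for Hba-a1, 14.5 ± 4.44 for Hba-a2 and 1.16 ± 0.37 for Alas2 (SD, n = 4). In each of the 4 NTG mice both β genes exceeded both α genes. In APP/PS1 mice the order was Hbb-bs (85.3 ± 48.2 RPKM), Hba-a1 (62.6 ± 22.5), Hbb-bt (61.1 ± 33.2), Hba-a2 (53.3 ± 30.2) and Alas2 (2.49 ± 1.44; SD, n = 5). In CP2-treated mice it was Hbb-bs (92.0 ± 46.4 RPKM), Hbb-bt (59.4 ± 28.9), Hba-a2 (59.3 ± 41.7), Hba-a1 (57.5 ± 39.9) and Alas2 (2.43 ± 1.13; SD, n = 5). Neighboring globin genes in each order differed by less than the larger of their SDs, except Hbb-bt and Hba-a1 in NTG mice, and the step down to Alas2 exceeded it in all 3 groups.

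The comparison of CP2-treated with vehicle-treated APP/PS1 mice asked whether the drug changed the transcripts in mice of the same genotype. No member passed the test, and the groups overlapped for all 5, beside 1.14% of genes tested whose groups did not overlap. Hba-a1 was at 30.0, 34.3, 25.1, 114 and 76.5 CPM in CP2-treated mice 21 to 25. Hba-a2 was at 21.7, 28.2, 20.2, 84.3 and 83.1 CPM in the same mice. Mice 21, 22 and 23 lay below every vehicle-treated mouse for Hba-a1, while mice 24 and 25 were among the 3 highest of all 14. The log2 fold changes were -0.12 ± 0.42 for Hba-a1 and 0.15 ± 0.49 for Hba-a2 (SE; adjusted p = 0.959 and 0.958). Hbb-bs was at 77.4, 54.0, 54.7, 158 and 133 CPM, with a log2 fold change of 0.11 ± 0.42 (adjusted p = 0.963). Hbb-bt was at 35.5, 29.6, 33.1, 75.1 and 77.8 CPM, with -0.04 ± 0.42 (adjusted p = 0.983). Alas2 was at 5.73, 4.25, 4.19, 10.9 and 10 CPM, with -0.04 ± 0.41 (adjusted p = 0.986). In each gene 2 of 5 CP2-treated mice exceeded the mean of the vehicle-treated mice. Of all 16407 genes tested 0.00609% were called, which is 1 gene, and 6.55% had an unadjusted p under 0.05, which held for no member. DESeq2 called 23 genes and none of the members. With standard errors above 0.4 on the log2 scale, this comparison left wide room on either side of no change for each member.

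CP2-treated APP/PS1 mice were also compared with NTG mice. This comparison shares the NTG mice with that of vehicle-treated APP/PS1 mice, so the values are side by side and not independent. Hba-a2 rose, with a log2 fold change of 1.98 ± 0.48 (SE), an adjusted p of 0.0359 and all 5 CP2-treated mice above all 4 NTG mice. This call was lost without NTG mouse 8 (adjusted p = 0.104), mouse 9 (0.0812) or mouse 10 (0.0914), without CP2-treated mouse 24 (0.0735) or mouse 25 (0.0669), with the ribosomal RNA share as a covariate (0.0766) and with limma-voom (0.0924). Hba-a1 had a log2 fold change of 1.65 ± 0.44, and its adjusted p of 0.0522 missed the threshold, with 4 of 5 mice above every NTG mouse. It passed with DESeq2 (adjusted p = 0.0267). Hbb-bs stood at 1.06 ± 0.35 (adjusted p = 0.109), Hbb-bt at 0.80 ± 0.32 (adjusted p = 0.192) and Alas2 at 1.02 ± 0.33 (adjusted p = 0.108). One member of 5 was thus called, beside 6.02% of the 16416 genes tested, and 1 member of 5 had groups that did not overlap, beside 9.61%. All 5 members had an unadjusted p under 0.05, beside 20.2% of genes.

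The members were among the most variable genes in the tissue. Within groups, the SD of log2 CPM was 0.69 for Hba-a1, 0.80 for Hba-a2, 0.71 for Hbb-bs, 0.71 for Hbb-bt and 0.69 for Alas2, against a median of 0.13 over 16521 genes, and 98.7 to 99.2% of those genes had a smaller SD. They varied together. After each group was centered on its mean, Pearson's r over the 14 mice was 0.98 for Hbb-bs with Alas2, 0.97 for Hbb-bs with Hbb-bt, 0.95 for Hbb-bt with Alas2, 0.93 for Hba-a1 with Hba-a2, and between 0.86 and 0.92 for the α genes with the β genes and Alas2. These are descriptions over mice that share a library, a scaling factor and, within each chain, reads that fit both copies. Alas2 shares no such reads with the globin genes.

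Among genes that are not members, those most like the summed hemoglobin level after centering included 1700020D05Rik (r = 0.88), Gm19744 (r = 0.88), Exoc1 (r = 0.87) and Atg2b (r = 0.84), over 14 mice. Without centering, the highest Spearman correlations were those of Exoc1 (0.94), Cpne1 (0.90), Figf (0.89), Cep250 (0.86) and Zdhhc21 (0.86). Alas2 had 0.96 and 0.98 on these measures. Exoc1, a subunit of the exocyst, moved little, from 48.7 to 56.7 CPM. Figf, a vascular endothelial growth factor, ran from 1.74 to 4.30 CPM and 1700020D05Rik from 0.788 to 1.95 CPM. The genes named are the top of a list of 16521 genes ranked over 14 libraries. In that list 1% of genes other than the members had r above 0.67.

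Other red cell genes bear on whether single mice held more blood. Slc4a1, the anion exchanger of the red cell membrane, was at 3.45 CPM in mouse 20 and 0.98 CPM in mouse 25, and at 0.53, 0.48 and 0.31 CPM in mice 7, 24 and 23. The other 9 mice lay between 0.045 and 0.27 CPM. Trim10, an erythroid maturation gene, was highest in mice 20 (0.47 CPM), 25 (0.28 CPM) and 24 (0.23 CPM). So the 3 mice with the most hemoglobin message also had the most Trim10, with at most 42 counts in any library. Slc4a1 did not reach the filter of 1 CPM in every mouse of a group, and without that filter its log2 fold change in APP/PS1 against NTG was 1.67 ± 1.05 (adjusted p = 0.567).

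**Figure D4:**
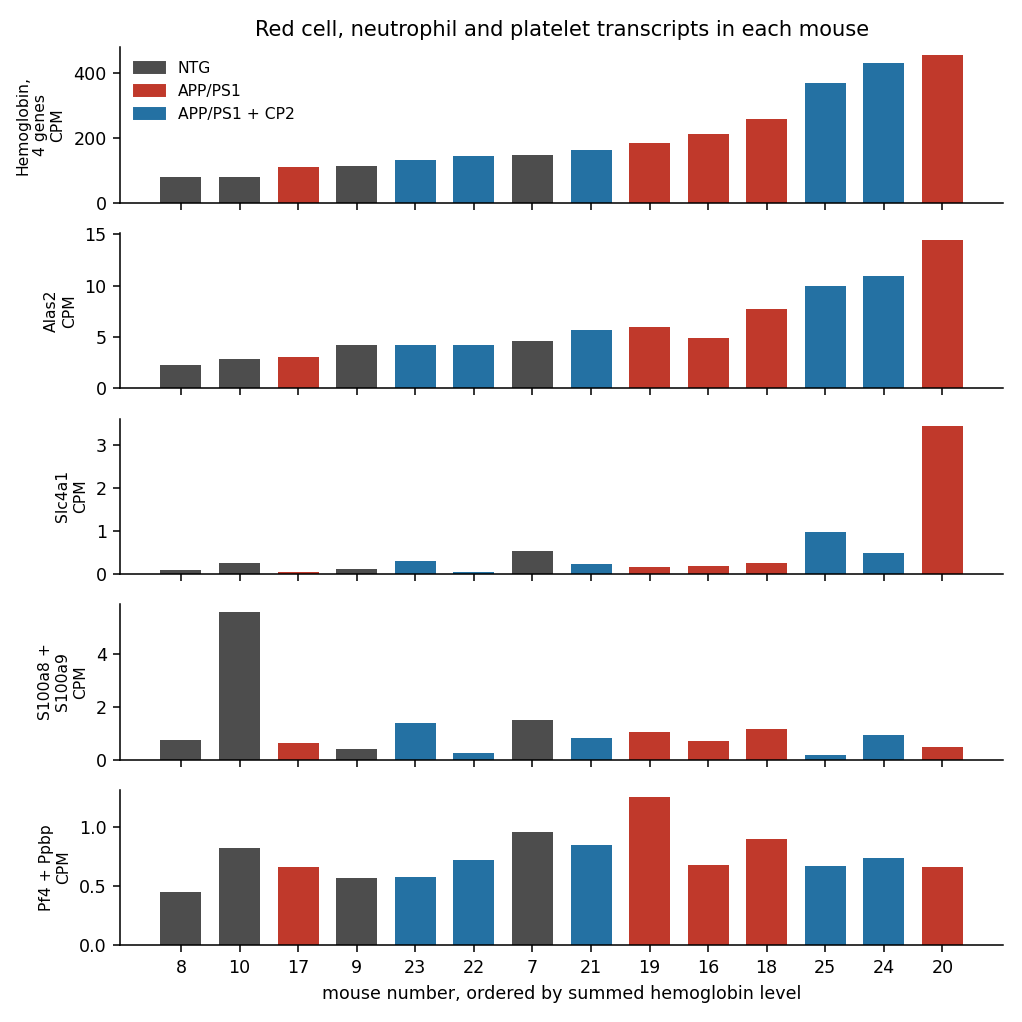
CPM (linear axes from 0) of the 4 hemoglobin genes summed, Alas2, Slc4a1, the neutrophil genes S100a8 and S100a9 summed, and Pf4 and Ppbp of the platelet list summed. Mice are ordered by hemoglobin and colored by group. Alas2 climbs with hemoglobin to mouse 20 (457 and 14.4 CPM), Slc4a1 peaks in mouse 20 at 3.45 CPM, and the neutrophil genes peak in NTG mouse 10, the next to lowest for hemoglobin.

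Of the red cell membrane and maturation genes listed, 18 of 20 were in the table and 8 were tested. Many of these are also used by brain cells, among them the most abundant, Sptb (248 to 326 CPM), and Bpgm (50.5 to 63.4 CPM). None passed the test in APP/PS1 against NTG, with a median log2 fold change of -0.0090, and 1 did in CP2-treated APP/PS1 against NTG, with a median of -0.048. That was Tfrc, the transferrin receptor, which rose by 0.25 ± 0.06 on the log2 scale (adjusted p = 0.0304) and had 0.35 ± 0.09 in vehicle-treated APP/PS1 mice (adjusted p = 0.0581). Of 8 erythroid transcription factors, 4 were tested. Gata1 had 0 to 2 counts in a library, Gfi1b at most 4 and Klf1 at most 36, while the most abundant, Bcl11a, works in neurons too and lay at 54.1 to 75.4 CPM. Lmo2, shared with endothelium, was the 1 gene of this list to pass, and rose in APP/PS1 (0.67 ± 0.09, adjusted p = 0.0016) and in CP2-treated APP/PS1 mice (0.53 ± 0.10, adjusted p = 0.0117) against NTG. The list medians were -0.029 and 0.019.

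Of 9 embryonic and minor globin genes, 7 were in the table and none reached the filter. Hbb-bh0, Hbb-bh1 and Hbb-bh2 had no count in any library, which allows up to 3 counts or 0.0425 CPM in the smallest. Hba-x had at most 2 counts and Hbb-y at most 7. Hbq1a, a minor α-like gene, was the highest at 0.45 to 1.71 CPM. The globins made by tissue itself gave no call: Cygb, cytoglobin, lay at 54.5 to 82.4 CPM and Ngb, the neuronal neuroglobin, at 8.06 to 13.9 CPM, and their log2 fold changes in APP/PS1 against NTG were -0.27 ± 0.12 (adjusted p = 0.268) and 0.02 ± 0.18 (adjusted p = 0.970).

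The 8 other enzymes of heme synthesis were all tested and none was called in any comparison. After centering each group, Alad, Cpox, Fech and Ppox had Pearson's r of -0.60, 0.55, 0.54 and 0.48 with summed hemoglobin over the 14 mice, and the summed list had -0.060, as a description of values that share libraries and scaling. Alas1, which serves cells other than red cells, lay between 41.9 and 50.5 CPM in all 14 mice and had a log2 fold change of 0.13 ± 0.05 in APP/PS1 against NTG (adjusted p = 0.196). Fech, which puts iron into heme, was the most abundant at 51.4 to 58.2 CPM. The list's median log2 fold changes were 0.013 in APP/PS1 against NTG, -0.060 for CP2 against vehicle within APP/PS1 mice and -0.029 in CP2-treated APP/PS1 against NTG.

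Of 8 genes of heme breakdown and hemoglobin clearance, 6 were tested. Hmox1, the inducible heme oxygenase, was at 4.29, 4.57, 4.58 and 4.94 CPM in NTG mice, between 7.23 and 12.4 CPM in APP/PS1 mice and between 6.80 and 9.61 CPM in CP2-treated mice. Neither APP/PS1 group overlapped NTG. Hmox1 rose in APP/PS1 (1.12 ± 0.15, adjusted p = 0.0017) and in CP2-treated APP/PS1 mice (0.82 ± 0.11, adjusted p = 0.0016) against NTG, and had -0.30 ± 0.15 between the APP/PS1 groups (adjusted p = 0.747). Over the 14 mice the Spearman correlation of Hmox1 with summed hemoglobin was 0.49. Pearson's r after centering each group was -0.19, both given as a description. Mouse 19 was highest for Hmox1 with the 6th highest hemoglobin level. Mouse 25, with the 3rd highest hemoglobin level, was lowest of all 10 APP/PS1 mice for Hmox1. Hmox1 is also made by microglia. The part of hemoglobin or of microglia in the Hmox1 difference was not tested. Cd163, the receptor for haptoglobin-bound hemoglobin on macrophages, ran from 1.53 to 5.93 CPM and did not pass the test in APP/PS1 against NTG (0.77 ± 0.25, adjusted p = 0.117). Hp and Hpx, which bind free hemoglobin and heme in plasma, were below 0.6 CPM in every library, and Lrp1, the list's most abundant gene, was at 648 to 764 CPM. The list medians were 0.12 in both comparisons with NTG.

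After centering each group, the summed platelet, neutrophil and lymphocyte lists had Pearson's r of -0.25, 0.016 and 0.12 with summed hemoglobin over the 14 mice, as a description of sums that share libraries and scaling. On the same measure the mural cell, brain endothelium, erythroid transcription factor and red cell membrane lists had 0.48, 0.40, 0.32 and 0.19, and the microglia list had -0.39. Such a sum is weighted to its most abundant genes. Gp1bb of the platelet list had 81.3 to 127 CPM and an r of -0.25 by itself. Sptb of the red cell membrane list had 248 to 326 CPM and an r of 0.23. These r therefore describe the sums and not the cell types. Of 12 platelet genes 3 were tested and none called. Pf4 and Ppbp ran from 0.39 to 0.85 and from 0.059 to 0.40 CPM, and whether these reads came from platelets was not tested. The list's sum was 88.9 to 119 CPM in NTG, 88.5 to 134 in APP/PS1 and 92.2 to 104 in CP2-treated mice, most of it from Gp1bb. Of 12 neutrophil genes 1 was tested and none called. S100a8, S100a9, Ngp and Ltf were highest in NTG mouse 10, at 2.49, 3.14, 1.31 and 1.91 CPM, the mouse with the next to lowest hemoglobin level. The neutrophil sum was 2.55 to 11.9 CPM in NTG, 2.50 to 3.55 in APP/PS1 and 1.58 to 4.42 in CP2-treated mice. Of 10 lymphocyte genes only Ighm, immunoglobulin M heavy chain, was tested. It rose in APP/PS1 (1.41 ± 0.15, adjusted p = 0.00051) and in CP2-treated APP/PS1 mice (1.19 ± 0.10, adjusted p = 0.000198) against NTG, from 9.42 to 11.4 CPM in NTG to 18.6 to 31.8 and 19.3 to 26.1 CPM. The lymphocyte sum was 10.7 to 13.0, 21.8 to 55.3 and 22.5 to 28.8 CPM in the 3 groups, with medians of 11.6, 31.5 and 24.5 CPM. The 55.3 CPM came from mouse 16, in which Cd4, a T cell co-receptor gene, was at 21.6 CPM against a group median of 0.75 CPM. The part of these cells in the hemoglobin difference was not tested.

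Vessel and microglia markers are set beside all genes tested. Of those, 5.68% were called in either direction in APP/PS1 against NTG and 6.02% in CP2-treated APP/PS1 against NTG. Of 12 brain endothelium genes, all tested, 1 rose in APP/PS1 against NTG (Pecam1, 0.40 ± 0.07, adjusted p = 0.0097) and 5 rose in CP2-treated APP/PS1 against NTG, led by Flt1 (0.33 ± 0.06, adjusted p = 0.0063). The summed level was 328 to 353 CPM in NTG, 343 to 475 in APP/PS1 and 372 to 427 in CP2-treated mice. The group-centered r with summed hemoglobin differed in sign among these genes, from -0.47 for Cldn5, which seals the endothelium, to 0.58 for Vwf, 0.53 for the glucose transporter gene Slc2a1 and 0.47 for Ly6c1. Among the mural cell genes it also differed in sign, from -0.12 for Pdgfrb and 0.19 for Vtn to 0.64 for Kcnj8 and 0.72 for Abcc9. Of 8 mural cell genes none passed in APP/PS1 against NTG, with a median log2 fold change of 0.52, and 5 rose in CP2-treated APP/PS1 against NTG, led by Rgs5 (0.81 ± 0.09, adjusted p = 0.000495). The mural sum was 133 to 162, 173 to 281 and 212 to 261 CPM, so NTG did not overlap either APP/PS1 group. All 6 microglia markers rose in APP/PS1 against NTG and 4 in CP2-treated APP/PS1 against NTG, and their sum was 336 to 355, 646 to 896 and 524 to 806 CPM. For CP2 against vehicle within APP/PS1 mice, no endothelium, mural cell or microglia gene of these lists was called. The median log2 fold changes there were 0.017, 0.093 and -0.18, so the unlike numbers of calls against NTG do not show an effect of CP2. The part of vessels and microglia in the hemoglobin difference was not tested.

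The slice itself varied. The choroid plexus marker Ttr, transthyretin, ran from 4.57 to 1260 CPM, its lowest value being in mouse 16 and its highest in mouse 17. None of 8 choroid plexus genes and none of 8 meningeal genes was called in any comparison. Choroid plexus sums were 33.1 to 986 CPM in NTG, 33.6 to 1400 in APP/PS1 and 203 to 775 in CP2-treated mice, and meningeal sums 157 to 229, 98.5 to 265 and 147 to 289 CPM. Of the mice with the most hemoglobin, mice 20, 24 and 25 had Ttr at 386, 471 and 545 CPM. The NTG mice ran from 6.94 to 871 CPM, a range so wide that lying within it tells little. The part of the slice or of choroid plexus in the hemoglobin difference was not tested.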

How the data were processed

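RNA was sequenced from 1 brain sample of each of 14 mice. Per the labels and the study's methods, the authors aligned paired reads to mm10 with TopHat and counted them per gene with featureCounts. They deposited raw counts and RPKM values, the latter divided by a per-mouse read total and by gene length. Groups were taken from the labels. The members and all gene lists were chosen with earlier results of these data known. Each pair of groups was fitted over the whole table with edgeR 4.0.16 (TMM factors, quasi-likelihood test, two-sided, Benjamini-Hochberg adjustment) on genes above 1 CPM in every mouse of at least 1 group, as in the study's filter. A call is an adjusted p under 0.05. P-values measure the spread between these mice. The fit was tested on simulated data. Correlations used log2 CPM with a prior count of 2. Named besides the members were list genes with a call (at most 6 a list), each list's most abundant gene, genes overlapping a member, and the 5 genes most like the hemoglobin sum by each of 2 measures, of which 1 is not reported here. Values by mouse of Slc4a1, Trim10, Alad, Hmox1 and the blood, vessel and choroid plexus markers shown were chosen after they were seen. Alternatives were RLE and upper-quartile factors, DESeq2 1.42.0, limma-voom (limma 3.58.1) with quality weights, no filter, at least 10 counts in every mouse, all 3 groups in 1 fit, the ribosomal RNA share as a covariate, deposited RPKM, and each mouse left out.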

Additional observations from a re-analysis of the deposited data

Results flagged for a closer look

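With a check for a mouse far from the rest of its group, run on 87 values (the members, their sums and shares, and the list sums in each group), 2 stood apart. Hba-a2 in APP/PS1 mouse 20 was at 87.4 CPM, with a gap to the next mouse of 0.74 of the group's range. The summed oligodendrocyte markers in NTG mouse 7 were at 7084 CPM, with a gap of 0.85 of the range. Chance marks about 1 in 20 groups.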

How the results depend on the processing

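No paired analysis was possible because the mouse numbers are not shared between groups. In APP/PS1 against NTG no scaling, filter or tool changed a member's direction or call, and leaving out mice gave log2 fold changes of 1.54 to 2.0 (Hba-a1), 1.40 to 2.0 (Hba-a2, whose call was lost without NTG mouse 8, 9 or 10), 0.56 to 1.16 (Hbb-bs), 0.47 to 1.07 (Hbb-bt) and 0.64 to 1.25 (Alas2). In CP2-treated APP/PS1 against NTG, Hba-a1 passed with DESeq2 (1.65), without the filter (1.65) and with 3 groups in 1 fit (1.65), Hba-a2 missed with limma-voom (1.71) and the ribosomal covariate (1.76), and mice left out gave 1.22 to 1.88 (Hba-a1) and 1.67 to 2.18 (Hba-a2). Between the APP/PS1 groups signs turned with limma-voom (Hba-a2 -0.070, Hbb-bt 0.0079) and the covariate (Hba-a2 -0.011, Hbb-bs -0.094), none near the threshold, and mice left out gave -0.56 to 0.11 (Hba-a1), -0.16 to 0.58 (Hba-a2), -0.15 to 0.50 (Hbb-bs), -0.27 to 0.32 (Hbb-bt) and -0.25 to 0.38 (Alas2). Genes called were 932 in APP/PS1 against NTG (1667 with DESeq2, 1563 with limma-voom, 578 without mouse 9 to 1486 without mouse 16), 1 between the APP/PS1 groups (23 with DESeq2, 2 with the covariate, 0 with 3 groups in 1 fit, 0 to 1 with mice left out, the 0 being without mouse 22) and 989 in CP2-treated APP/PS1 against NTG (1670 with DESeq2, 616 without mouse 21, 623 without mouse 8 and, over all mice left out, 572 without mouse 9 to 1123 without mouse 23). From RPKM, hemoglobin per Alas2 was 94.4 in NTG, 109 in APP/PS1 and 106 in CP2-treated mice, against 30.6, 35.2 and 34.3 from counts, since the genes differ in length, and the Hbb-bt share of β was 44.0, 41.6 and 39.5%, against 39.0, 36.7 and 34.7%. The cause of the other changes was not tested.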

Other observations

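Alad, which makes the second step of heme synthesis, sat at 2 levels that did not follow the groups. It was at 16.2 to 17.8 CPM in mice 9, 20, 23, 24 and 25 and at 29.9 to 34.5 CPM in the other 9 mice. The lower level thus occurred in 1 NTG, 1 APP/PS1 and 3 CP2-treated mice, among them the 3 mice with the most hemoglobin message. Alad's log2 fold changes were -0.0071 ± 0.24 in APP/PS1 against NTG and -0.35 ± 0.25 in CP2 against vehicle within APP/PS1 (SE; adjusted p = 0.993 and 0.784).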
